A study of Gallus gallus with 20 samples.

Results

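The insulin-like growth factor (IGF) family was described in cultured muscle satellite cells (MuSCs) of broiler chickens by the transcripts of its ligands, receptors and binding proteins. The members were fixed by name, not by a threshold on their values, but were chosen with earlier results of these data known. They were IGF1, IGF2, IGF1R, IGF2R, IGFBP1, IGFBP2, IGFBP3, IGFBP4, IGFBP5 and IGFBP7. All 10 were present among the 30108 genes of the table, each in 1 row. The RNA-seq libraries came from proliferating primary MuSCs isolated from the pectoralis muscle of Ross-308 birds. These were classed by wooden breast (WB), a myopathy of fast-growing broilers, as affected (9 libraries) or non-affected (11 libraries). In the paper, non-affected birds had fewer signs of fibrosis, and some showed necrotic fibers or inflammation. Muscle came from birds raised for the study or from an abattoir, and the source of each library is not given in the sources used here. Per the study's methods, birds of both groups had the same age, the cells had been depleted of fast-adhering fibroblasts by pre-plating, frozen, and used after several passages, and the sex of the birds was given as male. No treatment or genetic change was named for either group. Each library carries a bird number, and 4 numbers occur with and without a suffix B (A16, A76, NA61 and NA64, where A stands for affected and NA for non-affected).

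IGF1 and IGF2 are secreted ligands that act through IGF1R, a receptor tyrosine kinase whose signal runs through insulin receptor substrates, PI3K, AKT and mTOR to growth, survival and protein synthesis. IGF2R takes up IGF2 in mammals without passing on such a signal, and also sorts lysosomal enzymes through mannose 6-phosphate. The binding proteins hold ligand outside the cell, extend its life or keep it from the receptor, and are cut by proteases that set it free. In cultured muscle cells, IGF signalling is known to act both in proliferation and, with IGF2 produced by the cells themselves, in differentiation.

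Total counts were 15632134 to 26541152 in affected libraries and 15425103 to 28113814 in non-affected libraries. HINTW, a gene of the female-specific W chromosome, had 876 counts in 1 affected library (A76) and more in 9 of the 11 non-affected libraries, up to 5701, and at most 9 counts in the other 10 libraries, so the sex of the birds and the group cannot be fully told apart. Among markers of myogenic cells, edgeR called 5 of 7 tested genes lower in affected cells (0 higher), beside 2.91% of all tested genes. With HINTW as a term, 0 of the 7 were called, in a fit that called 1 of all tested genes. Without the libraries of over 100 HINTW counts, 1 of the 7 was called lower (CDH15), beside 27 of all tested genes. The summed level of these markers was 45.3 to 237 CPM (counts scaled to the library size) in affected and 70.7 to 1937 CPM in non-affected libraries (713 CPM at most without NA70). PAX7, the transcription factor that marks satellite cells, was detected in every library, at 34.6 to 130 CPM in affected and 20.03 (NA64B) to 215 CPM in non-affected cells. Its medians were 70.8 CPM in affected and 158.5 CPM in non-affected cells, and 0 affected libraries lay above the non-affected median. The log2 fold change of PAX7 was -0.81 (edgeR adjusted p = 0.106), and limma-voom called it lower. MYOG, a regulator of differentiation, was at 0.183 to 0.522 CPM in affected cells, against a median of 4.56 CPM in non-affected cells, with 0.0628 CPM in NA64B, 339.7 CPM in NA70 and at most 17.8 CPM in the others. MYOD1, which commits cells to the muscle lineage, was at 0.317 to 9.92 CPM in affected cells, against 559 CPM in NA70 and 1.26 to 92.1 CPM in the other non-affected libraries. Of the macrophage markers, edgeR called 4 of 9 higher (0 lower), beside 3.33% of all tested genes, and 0 in both HINTW fits. The macrophage markers summed to 46.5 to 207 CPM in affected and 22.04 to 87.2 CPM in non-affected libraries. Fibroblast markers summed to 4363 to 17491 CPM in affected and 5618 to 20413 CPM in non-affected libraries, with COL1A1 as the main part. Among their 7 tested genes, edgeR called 1 lower (COL3A1, with means of 709 CPM in affected and 1555 CPM in non-affected cells) and 0 higher. In both HINTW fits, 0 fibroblast markers were called. In such bulk samples, fewer cells of a type and less RNA per cell cannot be told apart, and the part of cell composition or of sex in the values below was tested only where stated.

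None of the members was called different between the groups. With the edgeR quasi-likelihood test and an adjusted p of 0.05 or less, 0 of 8 tested members were higher and 0 were lower in affected cells, while 3.33% of all 14524 tested genes were higher and 2.91% lower. With an absolute log2 fold change of at least 1 as a second condition, 0 members and 3.29% of all tested genes were called. Without adjustment, 1 member (IGF2R) had a p under 0.05, as did 3496 of all tested genes, and DESeq2 and limma-voom also called 0 members. The log2 fold change was positive for 8 of 8 tested members with a median of 0.36, against a median of -0.01 over all tested genes, of which 7063 were positive and 7461 negative. The affected and non-affected libraries overlapped for every member, and the share of all tested genes with such an overlap was not counted.

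**Figure D1:**
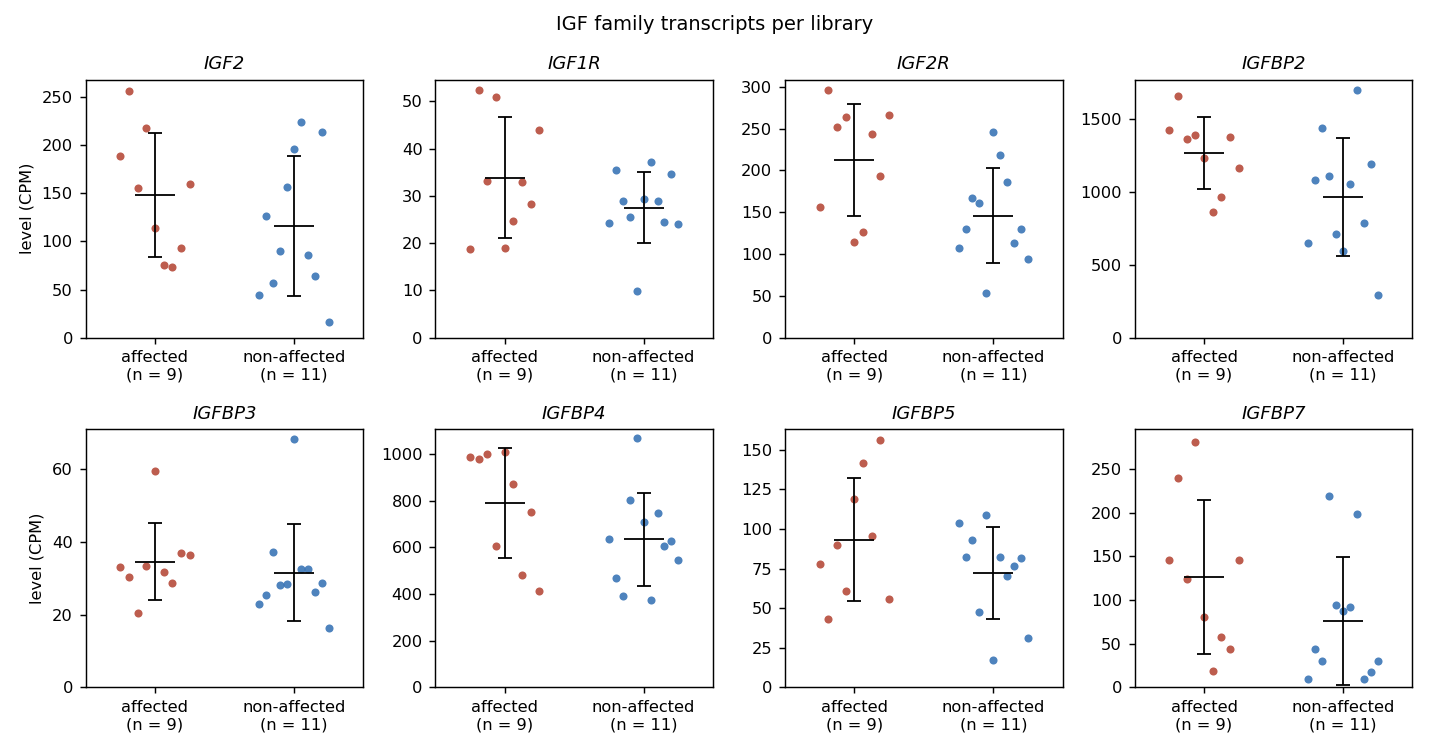
Level of each of the 8 tested IGF family transcripts, in CPM (linear axis from 0), in 9 affected and 11 non-affected libraries. Points are libraries, and bars give the mean and the SD. The groups overlap in every panel, and the points of IGFBP7 have the largest ratio of highest to lowest library, between 9.71 and 281 CPM.

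IGF2 was the ligand transcript that these cells carried in quantity. The gene (ENSGALG00010024580) lies on chromosome 5, 13375612 to 13394087, in the RefSeq annotation of GRCg7b. Its level in affected cells was 73.2 CPM at the lowest, 156 CPM at the median and 256 CPM at the highest, against 16.2, 90.1 and 224 CPM in non-affected cells. The highest library was A16B and the lowest NA70, and 7 of 9 affected libraries lay above the non-affected median. The mean was 148 ± 64.6 CPM in affected and 116 ± 72.3 CPM in non-affected cells (SD, n = 9 and 11), a log2 fold change of 0.35 with a 95% interval of -0.42 to 1.13 (edgeR adjusted p = 0.572). The interval thus spanned both directions. Within the affected group the level varied by a factor of 3.50, and within the non-affected group by a factor of 13.8.

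IGF1, the ligand that in the adult animal comes largely from the liver and is also made within muscle, was at the limit of detection. The gene (ENSGALG00010010259) lies on chromosome 1, 55326358 to 55374742, where its span overlaps a long non-coding RNA gene. The 9 affected libraries together held 40 counts and the 11 non-affected libraries 35 counts, and no library held more than 11. IGF1 had at least 1 count in every affected library and none in NA65 and NA70, where a count of 0 allows up to 0.155 and 0.139 CPM. The mean was 0.240 ± 0.140 CPM in affected and 0.168 ± 0.139 CPM in non-affected cells, and no difference was called (two-sided exact permutation test, p = 0.263). IGF1 did not pass the filter on low counts, so it was not in the main fit. With no filter beyond 1 count, and with DESeq2, it was not called either. How large a difference could be detected at this depth was not determined.

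Of the receptors, IGF1R, the tyrosine kinase that carries the ligands' signal, was detected in every library. It lies on chromosome 10, 16697226 to 16844358 (ENSGALG00010018730). Its level in affected cells ran from 18.8 CPM through a median of 33.0 CPM to 52.5 CPM, and in non-affected cells from 9.86 CPM through a median of 28.9 CPM to 37.2 CPM. A16B, A72 and A85 were above every non-affected library, whereas A16 and A73 were below every non-affected library but NA64B. The affected group therefore held both high and low libraries, and 5 of 9 lay above the non-affected median. The means were 33.8 ± 12.8 CPM in affected and 27.5 ± 7.53 CPM in non-affected cells, and the log2 fold change was 0.30 (95% interval -0.16 to 0.75, edgeR adjusted p = 0.406).

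IGF2R, the receptor for mannose 6-phosphate and, in mammals, for the uptake of IGF2, had the smallest p of the family. It lies on chromosome 3, 45169338 to 45223492 (ENSGALG00010006351), and its span overlaps a long non-coding RNA gene. The lowest, median and highest levels were 114, 244 and 296 CPM in affected cells and 53.4, 130 and 246 CPM in non-affected cells. Of the affected libraries, A16B, A72, A85 and A4 lay above every non-affected library, and A73 and A76 lay below the non-affected median. The mean was 213 ± 66.7 CPM in affected and 146 ± 56.7 CPM in non-affected cells. The log2 fold change of 0.54 (95% interval 0.05 to 1.03) had an unadjusted p of 0.0297 and an adjusted p of 0.158 with edgeR, so it did not pass the adjustment over all tested genes. Over the 20 fits that each left out a library, the adjusted p was 0.0725 or more, and over the 10 other settings it was 0.0704 to 0.996.

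**Figure D2:**
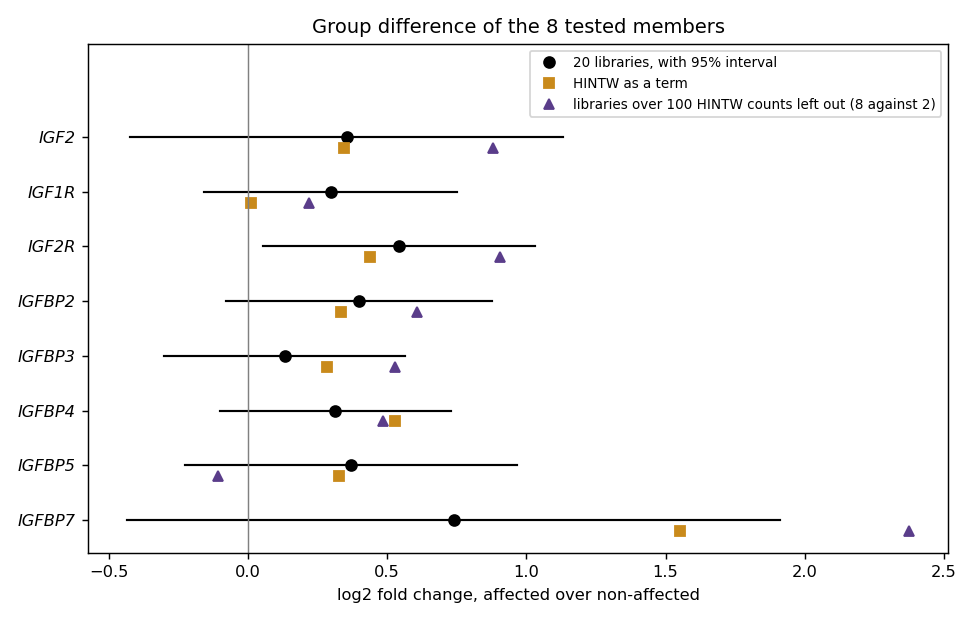
Log2 fold change of each tested member, affected over non-affected cells. Circles with bars give the fit on all 20 libraries with its 95% interval, squares the fit with HINTW as a term, and triangles the fit without libraries of over 100 HINTW counts (8 affected, 2 non-affected). Circles lie between 0.13 and 0.74, and the only symbol below 0 is the triangle of IGFBP5.

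Of the binding proteins, IGFBP2 and IGFBP4 had the most reads and IGFBP1 next to none. CPM are not scaled to transcript length, so this describes the reads behind each gene and not an order of molecules. In RefSeq, IGFBP2 and IGFBP5 are neighbours on chromosome 7 with 2586 bases between them, and IGFBP1 and IGFBP3 are neighbours on chromosome 2 with 7600 bases between them.

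IGFBP2, a binding protein with a preference for IGF2 in mammals, lies at 22879236 to 22951723 on chromosome 7 (ENSGALG00010019282). Its lowest, median and highest levels were 861, 1368 and 1662 CPM in affected cells and 290, 1055 and 1702 CPM in non-affected cells. NA61, NA64B, NA65, NA68 and NA70 were below every affected library, but the highest library, NA67, was also non-affected. The group means of 1272 ± 247 CPM in affected and 966 ± 406 CPM in non-affected cells differed by a log2 fold change of 0.40 (95% interval -0.08 to 0.88, edgeR adjusted p = 0.290). The level varied by a factor of 1.93 within the affected group and of 5.86 within the non-affected group.

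IGFBP5, which binds to extracellular matrix and rises during the differentiation of mouse myoblasts, lies beside it at 22854992 to 22876649 (ENSGALG00010019277), and its span overlaps a long non-coding RNA gene. The lowest, median and highest levels were 43.2, 89.7 and 156 CPM in affected cells and 17.4, 81.5 and 109 CPM in non-affected cells. A79, A76 and A73 were above every non-affected library, and NA65 and NA70 were below every affected one. The mean was 93.2 ± 39.0 CPM in affected and 72.1 ± 29.0 CPM in non-affected cells, a log2 fold change of 0.37 (95% interval -0.23 to 0.97, edgeR adjusted p = 0.432). IGFBP5 was the only member whose direction turned in any fit: without the libraries of over 100 HINTW counts the log2 fold change was -0.11 (adjusted p = 0.938), whereas over the other 9 settings and the 20 fits without a library it stayed above 0.

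IGFBP4, which in mammals mainly restrains IGF action until it is cut by the protease PAPPA, lies on chromosome 27, 4441013 to 4446307 (ENSGALG00010022511). Its lowest, median and highest levels were 415, 870 and 1008 CPM in affected cells and 375, 628 and 1070 CPM in non-affected cells. In the affected group, 4 libraries were at 976 CPM or more (A73, A4, A16 and A16B), and the others ran down by steps to A85 at 415 CPM. The highest of all was NA64B. The mean of 788 ± 235 CPM in affected cells, against 634 ± 200 CPM in non-affected cells, gave a log2 fold change of 0.31 (95% interval -0.10 to 0.73, edgeR adjusted p = 0.334).

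IGFBP3, the main carrier of IGFs in mammalian blood, lies on chromosome 2, 54603575 to 54621232 (ENSGALG00010008429). Its lowest, median and highest levels were 20.4, 33.0 and 59.5 CPM in affected cells and 16.4, 28.3 and 68.2 CPM in non-affected cells. Each group had a single library well above the rest, A73 among the affected and NA65 among the non-affected. With means of 34.5 ± 10.6 CPM in affected and 31.5 ± 13.3 CPM in non-affected cells, the log2 fold change was 0.13 (95% interval -0.30 to 0.57, edgeR adjusted p = 0.716). It moved with the libraries used: 0.00 without A73, 0.06 without NA70, 0.20 without A4, 0.31 without NA65 and 0.53 without the libraries of over 100 HINTW counts, with an adjusted p of 0.250 or more in each fit that left out a library.

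IGFBP1, its neighbour at 54589779 to 54595974 (ENSGALG00010008417), is in mammals mainly a product of the liver that insulin holds down. It had 19 counts in all affected libraries together and 14 in all non-affected libraries together. No count was found in 3 affected libraries (A16, A4 and A72) and 3 non-affected libraries (NA64, NA68 and NA70), where a count of 0 allows between 0.132 and 0.197 CPM, depending on the library. The mean was 0.114 ± 0.154 CPM in affected and 0.0690 ± 0.0605 CPM in non-affected cells (two-sided exact permutation test, p = 0.410). Of the 19 affected counts, 7 came from A76B and 6 from A85.

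IGFBP7, a relative that binds IGFs weakly and is known as a secreted matrix protein of vessels and senescent cells, varied the most. It lies on chromosome 4, 48656657 to 48686876 (ENSGALG00010003660). Its lowest, median and highest levels were 19.2, 125 and 281 CPM in affected cells and 9.71, 44.2 and 219 CPM in non-affected cells. A72 and A16B were the highest of all, but NA64 and NA67 came next, and A76 was among the lowest, so that both groups covered nearly the whole range. The mean was 126 ± 88.4 CPM in affected and 75.7 ± 72.999 CPM in non-affected cells, and the log2 fold change of 0.74 had a 95% interval of -0.43 to 1.91 (edgeR adjusted p = 0.423). The highest library exceeded the lowest by a factor of 28.9, and the SD of log2(CPM + 1) within groups was larger than in 99.1% of the 3252 tested genes of similar level. In RefSeq the span of IGFBP7 overlaps the protein-coding gene POLR2B, a subunit of RNA polymerase II. POLR2B itself kept to 118 to 134 CPM in affected and 98.02 to 126 CPM in non-affected cells. Whether reads were counted by strand is not given in the sources used here, so a share of reads of IGFBP7, IGF1, IGF2R and IGFBP5 may belong to the overlapping gene.

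**Figure D3:**
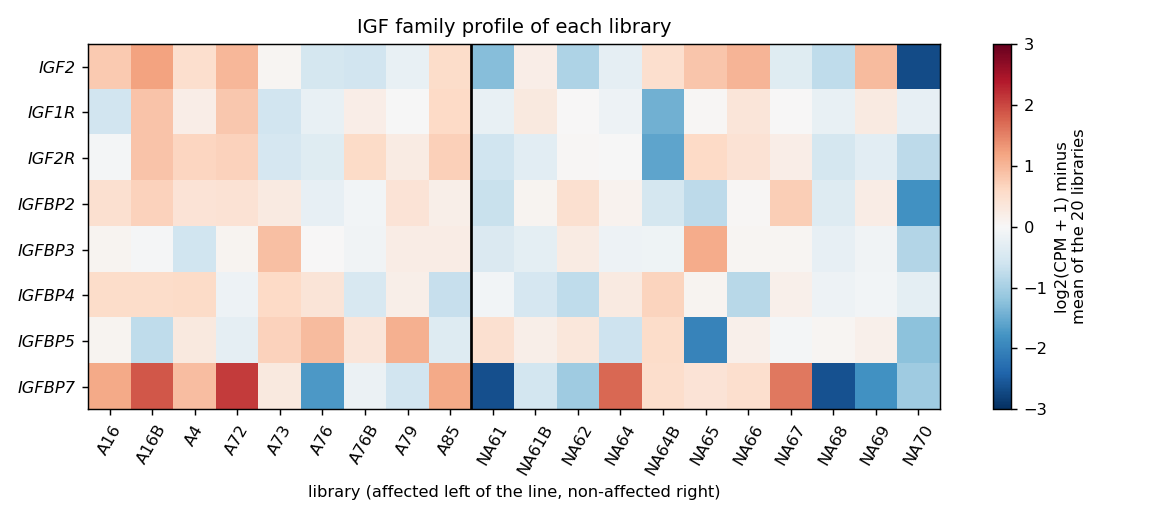
Level of each tested member in each library as log2(CPM + 1) minus its mean over the 20 libraries, in red above and blue below the mean. Affected libraries stand left of the line and non-affected libraries right of it. NA70 is below the mean in all 8 members, IGFBP7 has the deepest colours, and libraries of the same bird number differ.

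The libraries that share a bird number showed how far the members moved between cultures given the same number. These pairs were not the same library, since their counts differed by more than sampling noise (chi-square over degrees of freedom of 66.4 to 169). Their correlation of log2(CPM + 1) over tested genes was 0.979 for A16 and A16B, 0.969 for A76 and A76B, 0.968 for NA61 and NA61B, and 0.945 for NA64 and NA64B. Among the other 19 libraries, the suffix B library ranked 1 by correlation for A16, 4 for NA61, 7 for A76 and 18 for NA64. HINTW had 876 counts in A76 and 0 in A76B. What the suffix stands for, and so whether a shared number means a shared bird, is not given in the sources used here. IGF1R was 2.79 times as high in A16B as in A16, and 0.387 times as high in NA64B as in NA64. IGFBP7 was higher in the suffix B library by a factor of 4.55 for NA61 and of 3.02 for A76, and was at 0.433 of the level for NA64. In these pairs the difference within a number exceeded that between the group means of the same gene, while IGFBP3 stayed within a factor of 0.907 to 1.11 in all 4 pairs. Where the suffix B libraries were left out or the counts of a number were summed, 0 members were called.

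The values with sex-linked expression taken into account are given for the same reason. With HINTW as an additive term, the log2 fold changes of the members ran from 0.01 (IGF1R) to 1.55 (IGFBP7) and the adjusted p values from 0.908 to 0.999. Only 1 of all tested genes was called in that fit, and 849 had an unadjusted p under 0.05. Without the 10 libraries of over 100 HINTW counts, 8 affected libraries remained against 2 non-affected libraries, NA61 and NA61B, of a single bird number. The log2 fold change was then 2.37 for IGFBP7 (adjusted p = 0.295), 0.90 for IGF2R (adjusted p = 0.305) and 0.88 for IGF2 (adjusted p = 0.528), and 0 members were called.

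The expression of IGF1R followed that of proliferation genes across libraries, in the reverse direction. The proliferation genes were a list of 17 tested genes of DNA replication and mitosis. With edgeR on all 20 libraries, 0 were called (6 with an unadjusted p under 0.05, all lower in affected cells). Without A73, edgeR called 9 lower, beside 926 of all tested genes, and without A76 or without NA61B it called 2 lower. DESeq2 called 2 lower, beside 778 of all 19083 genes it tested. With limma-voom, 15 were lower, beside 1139 of all 14524 tested genes. The summed level of the proliferation genes was 383 to 2585 CPM in affected and 884 to 2444 CPM in non-affected libraries. Over 20 libraries, IGF1R and the mean z-score of these genes had a Pearson r of -0.73 (permutation p = 0.00021, adjusted over 6 relations 0.00126) and a Spearman rho of -0.72 (permutation p = 0.00046, adjusted 0.00276). Within the affected libraries r was -0.84 (exact permutation p = 0.00504, adjusted 0.0303) and rho was -0.88 (exact permutation p = 0.00308, adjusted 0.0185). Within the non-affected libraries r was -0.62 (permutation p = 0.0200, adjusted 0.0600) and rho was -0.69 (permutation p = 0.0222, adjusted 0.0739). Without A72 and A16B, the libraries farthest from the median of the proliferation genes, r was -0.59 and rho -0.62 (adjusted permutation p = 0.0428 and 0.0410), and without the suffix B libraries rho was -0.63 (adjusted permutation p = 0.0626). Within the 10 libraries of over 100 HINTW counts rho was -0.72 (adjusted permutation p = 0.110), and within the 10 others it was -0.81 (adjusted permutation p = 0.0414). The relation kept its sign in each of these sets. Over 20 libraries, 5.66% of all tested genes had a rho with the proliferation genes at or below that of IGF1R. Genes with a positive rho of this size were not counted.

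**Figure D4:**
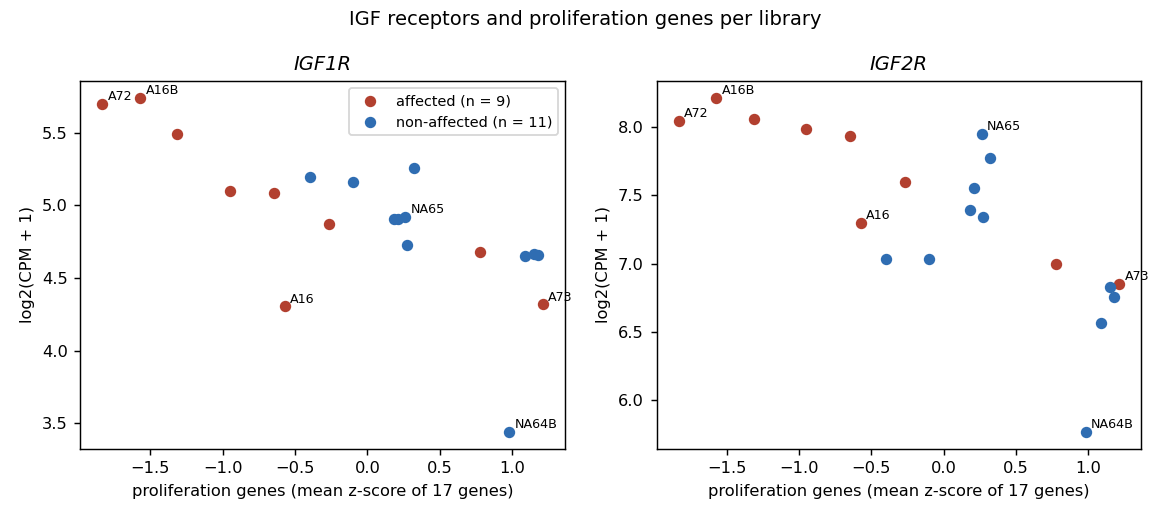
IGF1R and IGF2R, as log2(CPM + 1), against the mean z-score of 17 proliferation genes in each library. Red points are the 9 affected and blue points the 11 non-affected libraries. A72 and A16B combine the lowest proliferation scores with high receptor levels, and NA64B has the lowest level of both receptors.

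The other fixed relations were weaker or rested on few libraries. IGF2 and MYOG had a Pearson r of -0.75 (permutation p = 0.00083, adjusted 0.00249) but a Spearman rho of -0.43 (permutation p = 0.0578, adjusted 0.0867), and without NA70 and NA68, the libraries farthest from the MYOG median, r was -0.44 (permutation p = 0.0683). The call therefore needed those libraries. Within the libraries of over 100 HINTW counts its r was -0.84 (adjusted permutation p = 0.0303), and within the others, which hold neither of them, r was -0.68 and rho -0.13 (adjusted permutation p = 0.127 and 0.810). In those others, MYOG had 3 to 10 counts per affected library, 12 in NA61B and 51 in NA61, so that r may rest largely on NA61. IGF1 was positively related to the macrophage markers (r = 0.55, permutation p = 0.00924, adjusted 0.0185, and rho = 0.48, permutation p = 0.0320, adjusted 0.0774), but over a range of 0 to 11 counts, and without A79 and A76B r was 0.36 (permutation p = 0.145). IGFBP5 and MYOG had a rho of -0.47 (permutation p = 0.0387, adjusted 0.0774), IGFBP7 and the endothelial markers a rho of -0.14, and IGFBP3 and CDKN1A, the cell cycle inhibitor p21, a rho of 0.18 (adjusted permutation p = 0.544 for both).

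Beyond the members, 59 genes of the IGF pathway were listed by role, of which 52 were in the table and 49 were tested. Of these, 2 rose (IRS2 and ADAM12) and 0 fell in affected cells with edgeR, the median log2 fold change was 0.13, and 33 were positive and 16 negative. Without adjustment, 10 were higher and 6 lower at a p under 0.05, beside 3496 of all 14524 tested genes in either direction. DESeq2 tested 50 of the listed genes and called 4 higher and 2 lower, of which KAZALD1 was not among the 49. Over all 19083 genes that DESeq2 tested, 929 were higher and 778 lower. With limma-voom, 3 of the 49 were higher and 4 lower, beside 1100 higher and 1139 lower among all 14524 tested genes. The 2 called higher by edgeR are 2 of 49, near the background share of 3.33%.

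IRS2, a docking protein that links the insulin and IGF1 receptors to PI3K, was called among 12 tested receptor relatives, docking and adaptor proteins (1 higher, 0 lower, median 0.09). Its lowest, median and highest levels were 2.89, 13.4 and 35.0 CPM in affected cells and 2.56, 6.27 and 11.5 CPM in non-affected cells. The rise came from A72, A16B and A85 at over 32 CPM and from A16 and A4 at over 13 CPM, while A76, A73, A76B and A79 lay within the non-affected range. The log2 fold change was 1.40 with an SE of 0.40 (edgeR adjusted p = 0.0386, over the other 10 settings 0.0082 to 0.998). The call was lost with limma-voom, without the suffix B libraries, in both HINTW fits, and in 12 of 20 fits that left out a library.

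ADAM12, a membrane-anchored protease that cuts IGFBP3 and IGFBP5 in mammals, was called among 7 tested IGFBP proteases, inhibitors and carriers (1 higher, 0 lower, median 0.13). Its lowest, median and highest levels were 10.7, 44.7 and 72.1 CPM in affected cells and 5.61, 21.1 and 31.6 CPM in non-affected cells. All affected libraries but A73 were above every non-affected library. The log2 fold change was 1.13 with an SE of 0.30 (edgeR adjusted p = 0.0277, over the other 10 settings 0.00522 to 0.829). The call held in 19 of 20 fits that left out a library, and it was lost without the suffix B libraries (adjusted p = 0.0633), with the counts of a bird number summed (0.0639) and in both HINTW fits.

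**Figure D5:**
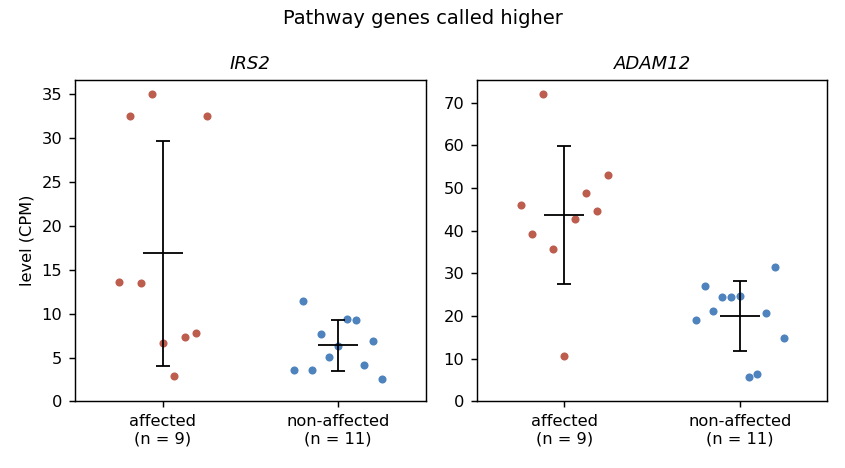
Level of IRS2 and ADAM12 in CPM (linear axis from 0) in 9 affected and 11 non-affected libraries, with the mean and SD as bars. IRS2 is raised in 5 of 9 affected libraries above the highest non-affected library, and ADAM12 in 8 of 9.

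With edgeR on all 20 libraries, no other list of the pathway held a call, but each held at least 1 with limma-voom or DESeq2. The counts without adjustment below stand beside 3496 of all 14524 tested genes with such a p under 0.05. In the PI3K, AKT and mTOR relay, 0 of 19 tested genes were called with edgeR (4 higher and 3 lower without adjustment, median 0.13), where RICTOR, the scaffold of mTOR complex 2, had a log2 fold change of 0.73 (edgeR adjusted p = 0.0697). RICTOR was called higher with DESeq2, limma-voom, the suffix B libraries left out and bird numbers summed, and limma-voom also called PIK3R1 higher and EIF4E and PIK3CB lower. In fits that left out a library, RICTOR was called higher without A73, without NA61B and without NA64B. In such fits PIK3R1 was called higher without NA65, PIK3R3 higher without A85, and EIF4E lower without A73. Among FOXO factors and atrophy targets, 0 of 5 were called with edgeR (2 higher and 1 lower without adjustment, median 0.34), among them FBXO32, the ubiquitin ligase atrogin-1, with 1.05 (edgeR adjusted p = 0.107) and FOXO6 with -0.77 (edgeR adjusted p = 0.0868). FOXO6 was called lower with DESeq2, with limma-voom and without NA64B, and FBXO32 was called higher without A73. Of the 3 IGF2 mRNA-binding proteins, 0 were called with edgeR (1 higher and 1 lower without adjustment), where IGF2BP2 had 0.42 (edgeR adjusted p = 0.0906) and IGF2BP3 -0.40 (edgeR adjusted p = 0.107). IGF2BP3 was called lower with limma-voom and without A73, and IGF2BP2 was called higher without NA61B. Of the 3 tested further proteins with an IGFBP domain, 0 were called with edgeR (1 higher without adjustment), where ESM1, a secreted proteoglycan of endothelium, had 1.60 (edgeR adjusted p = 0.0799). ESM1 was called higher with DESeq2 and without A73 or A76. With limma-voom, and in the edgeR fit without A85, 0 of the 3 tested genes of this list had an unadjusted p under 0.05. Its level was low, at 0.246 to 6.53 CPM in affected and 0.179 to 1.37 CPM in non-affected cells. KAZALD1, which edgeR did not test, was called lower with DESeq2. It was at 0 to 0.522 CPM in affected and 0 to 13.3 CPM in non-affected cells, with a non-affected mean of 2.03 ± 3.82 CPM. PAPPA2, a protease that cuts IGFBP3 and IGFBP5 in mammals, averaged 395 CPM in affected and 222 CPM in non-affected cells (log2 fold change 0.83, edgeR adjusted p = 0.233), and STC2, an inhibitor of that class of protease in mammals, 356 CPM in affected and 562 CPM in non-affected cells (log2 fold change -0.66, edgeR adjusted p = 0.167). Neither was called. The log2 fold changes of the remaining uncalled genes of that list were 0.45 (PAPPA), 0.13 (STC1), -0.18 (HTRA1) and -0.28 (IGFALS), each with an edgeR adjusted p of 0.438 or more.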

How the data were processed

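RNA of cultured MuSCs was sequenced by the authors after poly-T capture. Per the labels and the study's methods, reads were trimmed, aligned to GRCg7b with STAR 2.7.9a and quantified with Salmon 1.10.1, and the authors deposited estimated counts per gene, neither normalized nor filtered, of which 71.2% were whole. The study's methods exclude some non-affected samples and give other group sizes than the labels (9 affected, 11 non-affected). The excluded samples could not be matched to libraries, and all 20 labelled libraries were used here. The labels give each library a bird number. For the suffix B libraries it is not stated whether they are further birds or further cultures of a bird, so p-values that count them separately may in part measure technical spread.

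Estimated counts were rounded. Genes were filtered with filterByExpr (14524 of 30108 kept), normalized by TMM and tested for a group difference in edgeR 4.0.16 (quasi-likelihood F-test; limma 3.58.1, R 4.3.3). No covariate was used, and p-values were adjusted over all tested genes by the Benjamini-Hochberg method. The SE is the log2 fold change divided by the square root of F, an approximation that also gives the intervals. Levels are CPM with TMM factors, and logs use a pseudocount of 1. Relations used 100000 permutations, or all permutations within 9 libraries. Single values of untested genes used all 167960 assignments. A count of 0 allows 3 counts, which covers counting error only.

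Alternatives were DESeq2 1.42.0, limma-voom with sample weights, other normalizations and filters (none, or 10 counts in 9 libraries), each library left out, the suffix B libraries left out or summed, HINTW as a term, and libraries over 100 HINTW counts left out. The text names all 10 members, pathway genes past the threshold or else with the smallest p, and HINTW, MYOG, MYOD1 and PAX7; further genes of the lists were chosen after their values were seen. The members and lists were chosen with earlier results of these data known. The edgeR step was tested on simulated data, with changes larger than those of the members and a common dispersion for all genes. That test cannot tell whether changes as small as those of the members would be called. Positions are those RefSeq gives on GRCg7b, found by gene symbol for all 10 members. No sequences are shown and CPM are not compared per length, since transcript sequences and lengths were not used here.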

Additional observations from a re-analysis of the deposited data

Results flagged for a closer look

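IGFBP3 in A73 stood apart from the other affected libraries. Its level there was 59.5 CPM, the highest of the 9 affected libraries, with a gap to the next library (36.8 CPM in A79) that was larger than expected at the 95% level for 9 values. Of 12 genes examined in this way in the affected group, this was the only such case, and chance alone gives such a gap in about 1 in 20 groups. A73 also had the highest proliferation score of all libraries (1.21) and the lowest ADAM12 level among the affected (10.7 CPM), and whether these have a common source was not tested.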

How the results depend on the processing

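The count of members called was 0 in each direction under all 10 other settings and in all 20 fits without a library. The log2 fold change of the 8 tested members stayed above 0 throughout, except for IGFBP5, which was -0.11 without the libraries of over 100 HINTW counts. Over all tested genes, 484 were higher and 422 lower, against 929 and 778 with DESeq2, 1100 and 1139 with limma-voom, 306 higher without the suffix B libraries, 0 and 1 with HINTW as a term (849 with an unadjusted p under 0.05) and 9 and 27 without libraries of over 100 HINTW counts. Leaving out a library gave 268 (without A4) to 867 (without A73) higher and 243 (without A4) to 926 (without A73) lower. Pathway genes called were 2 higher and 0 lower, against 4 and 2 with DESeq2, 4 lower with limma-voom, 1 higher without the suffix B libraries and 0 higher in both HINTW fits, and leaving out a library gave 0 (without A4) to 5 (without A73) higher and 0 to 2 (without A73) lower. The rho of IGF1R with proliferation genes was -0.63 without the suffix B libraries (adjusted permutation p = 0.0626). The causes were not tested. No paired analysis was possible because the groups share no bird number. Depth limits IGF1 and IGFBP1, at 0 to 11 counts per library.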

Other observations

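Relations among the members themselves were examined after the data had been seen, as all 28 pairs of tested members and 40 pairs of a member with a list. IGF1R and IGF2R, which sit on different chromosomes, went up and down together over 20 libraries (r = 0.83, permutation p = 3e-05, adjusted 0.00084, and rho = 0.81, adjusted permutation p = 0.00196). The rho was 0.93 within the affected libraries (exact permutation test, adjusted p = 0.0122) and 0.75 within the non-affected libraries (adjusted permutation p = 0.136), and it was 0.74 without NA64B and A16B (adjusted permutation p = 0.0217, with r = 0.66). Within libraries of over 100 HINTW counts the rho was 0.85 (adjusted permutation p = 0.0825) and within the others 0.79 (adjusted permutation p = 0.0484). Of all tested genes, 0.537% had a rho with IGF1R over 20 libraries at or above that of IGF2R, and negative values were not counted. IGF2R was also inversely related to the proliferation genes (r = -0.78, adjusted permutation p = 0.0018, and rho = -0.81, adjusted permutation p = 0.0012), with a rho of -0.93 within affected libraries (exact permutation test, adjusted p = 0.0300) and -0.49 within non-affected libraries (adjusted permutation p = 0.368). Without A72 and A16B its rho was -0.75 and r was -0.73, and its rho was -0.62 within libraries of over 100 HINTW counts and -0.92 within the others (adjusted permutation p = 0.219 and 0.0224).

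Within the affected libraries, IGF2 and IGFBP7 had a rho of 0.92 (r = 0.93) and IGFBP5 and IGFBP7 a rho of -0.92 (r = -0.87), each with an adjusted p of 0.0122 for rho by an exact permutation test over 28 pairs, whereas 0 of 28 pairs passed within the non-affected libraries. That the groups differ in these relations was not tested. IGFBP2 and the smooth muscle and pericyte markers had an r of 0.83 (adjusted permutation p = 0.0018) and a rho of 0.62 (adjusted permutation p = 0.0549). NA70 had both the lowest IGFBP2 level (290 CPM, against 598 CPM in NA65, the next lowest) and the lowest score of these markers. This r may therefore rest largely on NA70. Of the 40 pairs of a member with a list, 8 passed by r over all libraries. Without the 2 libraries farthest from the median of the list, 1 passed. All of the pairs named above share libraries, depth and cell composition.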
